A study of Mus musculus with 16 samples.

Results

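Mandible and frontonasal prominence (FNP) of normal mouse embryos were compared at E11.5, when the facial prominences are separate swellings around the future mouth. The comparison rests on the 8 libraries of the control embryos among the 16 libraries of the series, 4 of mandible and 4 of FNP. The FNP was dissected as the lateral and medial nasal processes together. Each of the embryos 1, 2, 7 and 8 gave 1 mandible and 1 FNP library, and the libraries were paired by embryo. Embryos 1 and 7 were *Srf* flox/+; Wnt1-Cre, embryo 2 was *Srf* flox/flox and embryo 8 was *Srf* flox/+, the last 2 without Cre, so that all carried at least 1 floxed *Srf* allele. Wnt1-Cre recombines in neural crest cells, and the Cre-positive controls therefore had 1 deleted *Srf* allele in those cells. The deposited design table puts embryos 1 and 2 in the first litter and embryos 7 and 8 in the second, so each litter had 1 control with Cre and 1 without. The other 8 libraries came from embryos 3 to 6, the mutants (genotype *Srf* flox/flox; Wnt1-Cre), and were used only to see whether tissue differences recurred in other animals.

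The mesenchyme of both prominences comes mostly from the neural crest, and regional transcription factors set what each forms. In the mandibular arch, endothelin 1 from the epithelium signals through its receptor on crest cells to activate *Dlx5* and *Dlx6*, which in turn activate *Hand2*, and this cascade gives the arch its lower jaw identity. The frontonasal mesenchyme lacks this program and instead uses Alx, Pax3 and Pax7 genes under the influence of the forebrain, the surface ectoderm and the nasal placodes. Crest cells of the face carry no Hox code, whereas those of the second and more posterior arches do. Whole prominences were sequenced, so epithelium, placode, muscle precursors, vessels and blood are in the libraries beside the mesenchyme.

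Levels are given as TPM, a level per length scaled to the library, from the authors' table, in the order of embryos 1, 2, 7 and 8. Fold changes are mandible minus FNP on log2(value + 0.5) of the authors' scaled gene values, from limma with embryo as a block, and they understate the differences of genes near 0. Called genes are those whose adjusted p (Benjamini-Hochberg, over all 14159 genes tested) was 0.05 or less. Genes were tested if they reached a value of 10 in 4 or more of the 8 control libraries. A gene below 10 in every library of 1 tissue could pass this filter only through all 4 libraries of the other. The direction of such a gene was then fixed in advance, and the list counts and medians below include such genes. The library totals of the scaled gene values were 10.3 to 11.2 m. On principal components of the genes tested, the first component held 55.1% of the variance and set the mandibles at scores of 38.2 to 44.8 against -44.2 to -35.7 for the FNPs. The second component held 15.5% and separated the litters, with embryos 1 and 2 at 15.4 to 29.9 and embryos 7 and 8 at -27.8 to -18.4 in either tissue.

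Of the 14159 genes tested, 2122 (15.0%) differed between the tissues, 738 (5.21%) higher in the mandible and 1384 (9.77%) higher in the FNP (limma, Benjamini-Hochberg, n = 4 embryos). The mandible count fell to 479 without embryo 1 and to 483 with no variance trend in the fit. In the same settings the FNP count fell to 940 and to 1024. With an absolute log2 fold change of at least 1 the counts were 228 (1.61%) and 520 (3.67%), and with at least 3 they were 48 and 105. All 4 mandible libraries lay above all 4 FNP libraries for 789 genes (5.57%) and below them for 1492 (10.5%). The median log2 fold change over all genes was -0.02. For 9162 genes the 95% confidence interval of the log2 fold change lay within 0.5 of 0 on either side, and for 12003 within 1. In whole tissue, more cells of a type and more RNA per cell cannot be told apart.

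**Figure D1:**
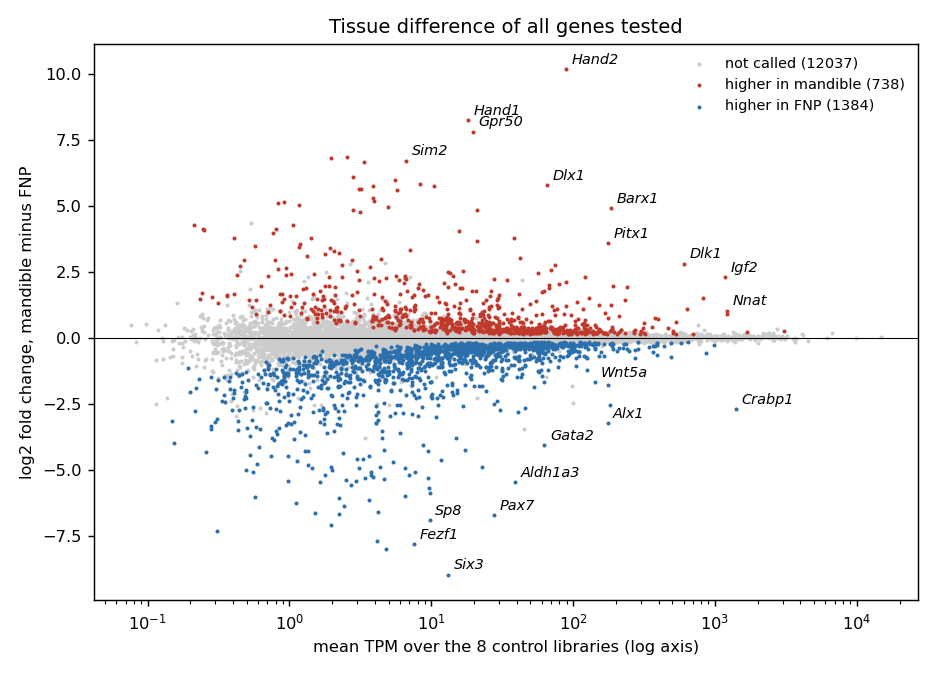
Log2 fold change between mandible and FNP (vertical axis, positive where the mandible is higher) against the mean TPM of the 8 control libraries (horizontal log axis) for the genes tested. Red points are the 738 genes called higher in the mandible, blue points the 1384 called higher in the FNP and grey points are genes not called. *Hand2* at 10.18 and *Six3* at -8.98 lie at the ends.

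*Hand2* and *Six3*, the genes that mark the 2 tissues, had the largest log2 fold change in each direction among called genes whose libraries did not overlap and that averaged at least 1 TPM in the higher tissue. *Hand2* encodes a bHLH transcription factor required in the ventral part of the arch for the lower jaw. It lies on chromosome 8 of GRCm38 from 57320983 to 57324633 on the plus strand, as annotated in GENCODE vM21. Its levels were 181, 169, 167 and 198 TPM in the mandibles and 0.0844, 0, 0.417 and 0.429 TPM in the FNPs. Each mandible was far above each FNP, with a log2 fold change of 10.18 (SE 0.625, Benjamini-Hochberg adjusted p = 7.18e-05 by limma). *Six3*, a homeobox gene of the anterior neural plate, the lens and the olfactory placode, lies on chromosome 17 from 85613608 to 85629302 on the plus strand. Its levels were 0.0778, 0.209, 0 and 0 TPM in the mandibles and 26.5, 29.4, 26.6 and 22.3 TPM in the FNPs. The log2 fold change was -8.98 (SE 0.585, Benjamini-Hochberg adjusted p = 9.31e-05 by limma). Because the low tissue was near 0, both genes passed the filter through the other tissue alone, which set their direction. Both folds also depend on the pseudocount, and the levels carry the comparison.

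The promoters of these genes are shown because these genes separate the tissues most. Many of the regional regulators described next also encode homeodomain proteins, and TAATTA is a site favoured by some of these but not all. Each sequence runs from 250 bases before to 50 bases after the start of the gene in RefSeq on GRCm38.p6, written 5′ to 3′ on the plus strand, with TAATTA in capitals. The RefSeq start of *Six3* lies inside the GENCODE span given above, downstream of its first base, so the window is not at the GENCODE start.
*Hand2* (chr8:57320733-57321032): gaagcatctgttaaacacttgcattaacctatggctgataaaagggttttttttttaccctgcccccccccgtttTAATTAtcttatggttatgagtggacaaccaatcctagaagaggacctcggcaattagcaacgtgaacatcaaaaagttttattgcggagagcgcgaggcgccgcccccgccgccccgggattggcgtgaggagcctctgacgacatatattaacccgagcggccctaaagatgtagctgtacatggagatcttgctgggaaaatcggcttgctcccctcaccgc
*Six3* (chr17:85620584-85620883): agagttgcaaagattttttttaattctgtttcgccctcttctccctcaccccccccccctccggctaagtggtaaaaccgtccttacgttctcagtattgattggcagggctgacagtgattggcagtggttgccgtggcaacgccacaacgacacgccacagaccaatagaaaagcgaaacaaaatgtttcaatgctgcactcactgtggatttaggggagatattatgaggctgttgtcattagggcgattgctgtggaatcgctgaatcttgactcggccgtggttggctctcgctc
The *Hand2* window held 1 TAATTA and the *Six3* window 0. This motif reads the same on both strands. It was present in 2.64% of the 13560 promoters of tested genes, which covered 10578 of the 14159 gene symbols. Among genes called with an absolute log2 fold change of at least 1, it was present in 9 of 196 promoters (4.59%) on the mandible side and 22 of 490 (4.49%) on the FNP side. Over all 32851 promoters of the table the share was 5.29%. A match is a description of the letters and not of a bound site.

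**Figure D2:**
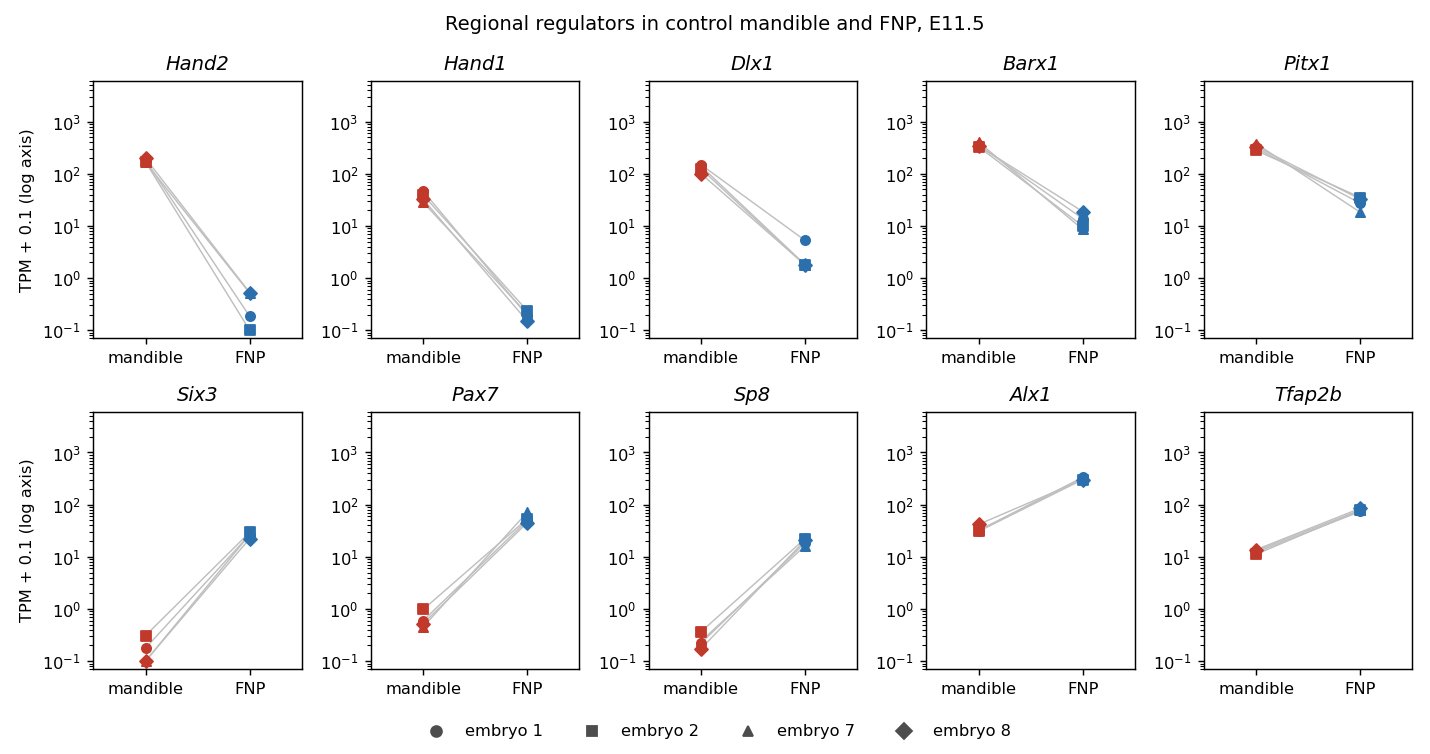
TPM + 0.1 on a log axis for regional regulators, with the mandible (red) and FNP (blue) libraries of each embryo joined by a grey line and the embryo given by the symbol. *Hand2*, *Hand1*, *Dlx1*, *Barx1* and *Pitx1* were higher in the mandible of all 4 embryos, and *Six3*, *Pax7*, *Sp8*, *Alx1* and *Tfap2b* in the FNP of all 4.

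Genes of the jaw patterning cascade were mostly higher in the mandible. Of 24 genes from the endothelin ligand to the Dlx and Hand factors and their targets, 14 were higher in the mandible, 3 in the FNP and 7 were not called, with a median log2 fold change of 1.25. This compares with 5.21% and 9.77% called in these directions and a median of -0.02 over all genes tested. The same shares and median are the reference for each list count below. The ligand and 2 other upstream genes were not called. The ligand gene *Edn1* had 0.323 to 1.10 TPM in the mandibles and 0.256 to 0.917 TPM in the FNPs, with a log2 fold change of 0.71 whose 95% confidence interval ran from -0.28 to 1.71. *Ece1*, which encodes the enzyme that matures endothelin, averaged 112 ± 33.0 TPM in the mandible and 119 ± 15.9 TPM in the FNP (SD, n = 4), and the log2 fold change of *Gnaq*, the G protein subunit downstream of the receptor, was -0.04 with a 95% confidence interval from -0.20 to 0.12. The receptor gene *Ednra* had 43.7, 42.5, 60.1 and 53.7 TPM in the mandibles and 50.3, 45.3, 68.0 and 60.9 TPM in the FNPs. The groups overlapped, the FNP was higher in each embryo and the log2 fold change was -0.17 (SE 0.0401, Benjamini-Hochberg adjusted p = 0.0322 by limma), a call that was lost without any 1 of the embryos.

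All 6 Dlx genes were higher in the mandible. They encode homeodomain factors and lie in the genome as 3 linked pairs. On chromosome 2, *Dlx1* (71528113 to 71533981) had 150, 125, 141 and 101 TPM in the mandibles and 5.18, 1.67, 1.71 and 1.70 TPM in the FNPs. Its neighbour *Dlx2* (71543408 to 71546754) had 68.1, 66.0, 50.3 and 41.6 TPM against 14.7, 12.2, 11.8 and 9.70 TPM. Both pairs of groups were separate, but the log2 fold change of *Dlx1*, 5.79 (SE 0.230, Benjamini-Hochberg adjusted p = 1.09e-05 by limma), was larger than that of *Dlx2*, 2.21 (SE 0.0775, adjusted p = 7.71e-06). On chromosome 6, the endothelin-dependent pair *Dlx5* and *Dlx6* had mandible means of 145 ± 20.0 and 119 ± 10.9 TPM and FNP means of 33.2 ± 2.59 and 20.8 ± 5.0 TPM (SD, n = 4), with log2 fold changes of 2.12 and 2.56. The chromosome 11 pair *Dlx3* and *Dlx4*, with means of 42.4 and 4.92 TPM in the mandible, had log2 fold changes of 1.42 and 2.96. In the FNP *Dlx5* remained at 29.5 to 35.4 TPM and *Dlx6* at 13.6 to 24.2 TPM, whereas *Dlx1* was at 1.67 to 5.18 TPM there.

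Factors downstream of or beside the Dlx genes in the lower jaw followed the same direction. *Hand1*, the relative of *Hand2* in the distal arch, had 46.5, 39.0, 28.2 and 32.3 TPM in the mandibles and 0.0901, 0.135, 0.105 and 0.0492 TPM in the FNPs. The tissues were apart in every embryo, with a log2 fold change of 8.24 (SE 0.225, Benjamini-Hochberg adjusted p = 4.29e-06 by limma). Like *Hand2*, it passed the filter through the mandibles alone, which set its direction. *Barx1*, a homeobox gene of the mesenchyme that forms molars, had 356, 332, 407 and 343 TPM against 13.7, 9.87, 8.49 and 18.8 TPM, a log2 fold change of 4.91 (SE 0.193, Benjamini-Hochberg adjusted p = 1.06e-05 by limma). *Nkx3-2*, which positions the jaw joint, was lower in absolute terms, at 8.48, 7.85, 6.68 and 2.11 TPM in the mandibles and 0.168, 0.246, 0 and 0.0579 TPM in the FNPs, and its log2 fold change was 5.64 (SE 0.525). *Gsc*, *Nr2f2* and *Nr2f1* were higher in the mandible by smaller log2 differences of 1.89, 1.08 and 0.66. The call of *Nr2f1*, a nuclear receptor gene, did not pass the threshold without embryo 2. On the FNP side of this list were *Pou3f3*, a gene of the upper jaw program, at 4.82 ± 0.959 TPM in the mandible and 28.9 ± 3.36 TPM in the FNP (SD, n = 4), and *Hey1*, a Notch target, at 15.9 ± 2.08 and 46.1 ± 3.53 TPM.

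Regulators of the oral mesenchyme and of tooth formation were also more often higher in the mandible. Of 16 such genes, 10 were higher in the mandible, 2 higher in the FNP, with a median log2 fold change of 2.17. *Pitx1*, a homeobox gene of the mandibular mesenchyme and the oral ectoderm, had 310, 280, 378 and 332 TPM in the mandibles and 27.1, 35.0, 18.1 and 32.4 TPM in the FNPs. The groups did not overlap, and the log2 fold change was 3.59 (SE 0.177, Benjamini-Hochberg adjusted p = 2.74e-05 by limma). The LIM homeobox pair *Lhx6* and *Lhx8*, which act together in the oral side of the arch, differed in size: *Lhx6* was at 40.4 ± 8.36 TPM in the mandible and 1.40 ± 0.440 TPM in the FNP, and *Lhx8* at 96.0 ± 3.56 and 17.6 ± 3.04 TPM (SD, n = 4). Their log2 fold changes were 4.86 (SE 0.222) and 2.45 (SE 0.0884).

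The odd-skipped genes *Osr1* and *Osr2*, which act in palate and tooth mesenchyme, had mandible means of 70.9 ± 22.2 and 22.5 ± 9.15 TPM and FNP means of 5.43 ± 3.17 and 4.49 ± 2.84 TPM (SD, n = 4). Both were higher in the mandible, by log2 fold changes of 3.80 and 2.45 (Benjamini-Hochberg adjusted p = 3.05e-05 and 0.000172 by limma). *Sim2*, a bHLH-PAS factor gene, had 11.2, 10.8, 19.0 and 11.9 TPM in the mandibles and at most 0.285 TPM in an FNP, a log2 fold change of 6.71 (SE 0.345). *Gbx2*, a homeobox gene of the first arch, had 26.2, 26.4, 9.27 and 4.06 TPM in the mandibles and 0.163, 0.30, 0.230 and 0.129 TPM in the FNPs. Its mandible level was higher in the first litter, and the log2 fold change was 6.73 within the first litter and 4.91 within the second. The members higher in the FNP were *Pax9*, at 10.5 ± 6.10 against 37.9 ± 12.6 TPM, and *Tbx2*, at 116 ± 4.07 against 188 ± 22.8 TPM (SD, n = 4). The other T-box gene *Tbx3* had a log2 fold change of 0.17 with a 95% confidence interval from -0.01 to 0.35.

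Genes listed as frontonasal mesenchyme regulators were higher in the FNP. The list also holds *Sp8* and the Zic genes, described below as genes of nasal ectoderm and of dorsal midline and forebrain. Its count and median are therefore not of mesenchyme alone. Of 16 listed, 14 passed the filter on low values, and of these 13 were higher in the FNP, 0 in the mandible, with a median log2 fold change of -2.59. *Pax7*, a paired box gene of frontonasal crest and nasal capsule, had 0.498, 0.877, 0.354 and 0.425 TPM in the mandibles and 50.2, 53.6, 71.7 and 45.2 TPM in the FNPs. The groups were widely separate, with a log2 fold change of -6.71 (SE 0.233, Benjamini-Hochberg adjusted p = 7.71e-06 by limma). Its relative *Pax3* had 5.45, 6.51, 10.4 and 11.6 TPM against 40.5, 40.6, 59.8 and 45.2 TPM, a smaller log2 fold change of -2.50 (SE 0.136). *Sp8*, a zinc finger gene of the nasal ectoderm, was at 0.120, 0.263, 0.140 and 0.0716 TPM in the mandibles and 18.4, 22.2, 16.1 and 20.5 TPM in the FNPs, a log2 fold change of -6.92 (SE 0.256).

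*Alx1* and *Alx4*, aristaless-like homeobox genes needed for the midface, were higher in the FNP by unequal amounts. *Alx1* had 30.8, 30.7, 31.9 and 41.6 TPM in the mandibles and 333, 302, 328 and 300 TPM in the FNPs, a log2 fold change of -3.24 (SE 0.0943, Benjamini-Hochberg adjusted p = 4.95e-06 by limma). *Alx4* had 75.7, 83.5, 100 and 108 TPM against 140, 148, 160 and 137 TPM. Its log2 fold change was -0.68 (SE 0.0864), and every mandible was below every FNP. *Tfap2b*, an AP-2 factor gene, was at 12.4 ± 1.05 TPM in the mandible and 79.1 ± 4.53 TPM in the FNP, and *Six2* at 80.2 ± 23.3 and 271 ± 48.1 TPM (SD, n = 4).

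Zic genes, zinc finger genes of the dorsal midline and forebrain, passed the filter for 3 of 5 members, and all 3 were higher in the FNP. Near 0 in the mandibles, *Zic1* passed through the FNP alone, which set its direction. *Zic1* was at 0.0138 to 0.138 TPM in the mandibles and at 9.77, 2.43, 0.435 and 2.69 TPM in the FNPs. The FNP of embryo 7 had the least and that of embryo 1 the most, for *Zic1* as well as for *Zic2* (4.60, 1.92, 0.788 and 2.16 TPM), while *Alx1* in the same FNPs ranged from 300 to 333 TPM. *Msx1*, a homeobox gene of distal facial mesenchyme, was abundant in both tissues, with means of 301 ± 13.8 TPM in the mandible and 477 ± 110 TPM in the FNP (SD, n = 4), and a log2 fold change of -0.63 (SE 0.130, Benjamini-Hochberg adjusted p = 0.0163 by limma). *Msx2* was at 41.2 ± 10.4 and 52.9 ± 7.31 TPM and was not called (log2 fold change -0.38, 95% confidence interval from -0.75 to 0.00).

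Genes of facial crest mesenchyme in general did not lean to either tissue. Of 22, 5 were higher in the mandible, 6 higher in the FNP, with a median log2 fold change of -0.04. *Twist1*, a bHLH gene of all facial mesenchyme, averaged 485 ± 25.2 TPM in the mandible and 545 ± 121 TPM in the FNP (SD, n = 4), with a log2 fold change of -0.10 and a 95% confidence interval from -0.33 to 0.13. Within families the members differed. *Prrx1* had 313, 337, 361 and 342 TPM in the mandibles and 107, 103, 163 and 135 TPM in the FNPs, while *Prrx2* had 87.8, 96.7, 94.3 and 86.7 TPM against 126, 132, 209 and 169 TPM. These paired-related homeobox genes thus lay in opposite directions, with log2 fold changes of 1.44 (SE 0.0848) and -0.77 (SE 0.114), and neither pair of groups overlapped. *Twist2* was also higher in the mandible, at 93.4 ± 7.85 against 27.9 ± 3.60 TPM, as was *Meis2* at 113 ± 12.4 against 59.7 ± 6.20 TPM. *Tfap2a* (20.8 ± 1.36 against 59.0 ± 7.71 TPM) and *Snai1* (57.0 ± 11.3 against 101 ± 14.5 TPM) were higher in the FNP.

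Forkhead genes divided in the same way, with 3 of 13 higher in the mandible, 3 higher in the FNP, the median log2 fold change being 0.37. Over all genes tested the shares were 5.21% and 9.77%. The hedgehog targets *Foxf1* and *Foxf2* had mandible means of 42.2 ± 4.70 and 38.3 ± 7.17 TPM and FNP means of 22.7 ± 3.78 and 13.2 ± 3.42 TPM (SD, n = 4), with log2 fold changes of 0.91 and 1.58. *Foxe1*, a gene of pharyngeal and oral epithelium, was at 7.92 ± 1.38 and 1.70 ± 0.453 TPM. *Foxc1*, higher in the FNP, was at 9.72 ± 3.71 and 28.6 ± 9.58 TPM. Hox genes were near 0 in either tissue. Over 39 Hox genes the summed level was 3.11 to 5.31 TPM in the mandibles and 0.660 to 1.27 TPM in the FNPs. Among them *Hoxb2*, a gene of the second arch and hindbrain, was the highest in every mandible, at 1.0 to 1.87 TPM. None of the 12 listed Hox genes of paralog groups 1 to 4 passed the filter for the test.

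The FNP libraries held RNA of forebrain, nasal placode and neurons. Of 22 forebrain and eye regulators 12 passed the filter, and 9 of these were higher in the FNP, 0 in the mandible, with a median log2 fold change of -4.97. Members near 0 in the mandible, such as *Six3* and *Fezf1*, passed through the FNP alone. Their direction follows from the filter, and the count and median include them. The summed level of the 22 regulators was 133 to 213 TPM in the FNPs and 29.3 to 48.5 TPM in the mandibles. *Fezf1*, a zinc finger gene of the olfactory epithelium and forebrain, had 0.0370, 0.121, 0 and 0.101 TPM in the mandibles and 14.1, 13.2, 15.9 and 17.1 TPM in the FNPs, a log2 fold change of -7.81 (SE 0.467, Benjamini-Hochberg adjusted p = 6.46e-05 by limma). Its paralog *Fezf2* was lower, at 2.40 to 3.25 TPM in the FNPs. *Otx2*, an anterior head gene, had 20.7, 21.6, 13.8 and 20.7 TPM in the FNPs and 0 to 0.979 TPM in the mandibles, and *Pax6*, a gene of eye and nasal placode, had 12.5, 16.5, 6.26 and 15.6 TPM in the FNPs and 0 to 0.758 TPM in the mandibles. For *Otx2*, *Pax6* and *Lhx2* (33.4, 29.9, 14.5 and 34.0 TPM) the FNP of embryo 7 was the lowest of the 4. Whether the RNA came from placode or from adherent forebrain cannot be told apart for the many genes that both express.

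Olfactory placode and nasal pit genes were higher in the FNP for 18 of 21 tested, with a median log2 fold change of -1.58. *Neurog1*, a bHLH gene of olfactory progenitors, had 8.43, 10.2, 5.59 and 9.44 TPM in the FNPs, and no mandible had more than 0.124 TPM. The log2 fold change was -6.58 (Benjamini-Hochberg adjusted p = 0.000119 by limma). This gene passed the filter through the FNP alone, which set its direction. *Neurod1*, which follows it in differentiating cells, was at 8.26 ± 2.49 TPM in the FNP (SD, n = 4) and 0 to 0.0727 TPM in the mandibles. *Sox2*, a progenitor gene also expressed in oral epithelium, was at 47.5 ± 13.1 TPM in the FNP and 15.3 ± 0.328 TPM in the mandible (SD, n = 4). Against the direction of the list, *Dlx5* was higher in the mandible, as described above, and so were 2 genes of early B-cell factors. *Ebf3* had 72.2, 72.6, 58.0 and 79.1 TPM in the mandibles and 31.1, 29.8, 20.5 and 36.1 TPM in the FNPs, a log2 fold change of 1.28 (SE 0.0612, Benjamini-Hochberg adjusted p = 2.48e-05 by limma). *Ebf2* overlapped between the tissues, with a log2 fold change of 0.59.

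Neuronal genes passed the test in the FNP for 13 of 18 members and in the mandible for 0, with a median log2 fold change of -2.74. Their summed level was 254 to 342 TPM in the FNPs and 94.9 to 136 TPM in the mandibles, and the part of neurons in the other FNP differences was not tested. *Nhlh1*, a bHLH gene of newly formed neurons, had 8.47, 10, 6.05 and 13.6 TPM in the FNPs and was listed at 0 in the mandibles of all but embryo 2, which had 0.195 TPM. *Nhlh1* passed the filter through the FNP alone, which set its direction. Its relative *Nhlh2* had 9.08 ± 2.41 TPM in the FNP and 1.14 ± 0.254 TPM in the mandible (SD, n = 4). The neuronal tubulin gene *Tubb3* was at 84.5, 75.2, 44.2 and 80.8 TPM in the FNPs and 8.86, 7.95, 11.1 and 11.7 TPM in the mandibles, a log2 fold change of -2.82 (SE 0.199, Benjamini-Hochberg adjusted p = 0.000126 by limma). *Stmn2*, *Elavl3* and *Ina*, genes of early neurons, had log2 fold changes of -4.61, -5.27 and -4.95. *Htr3b*, a serotonin receptor subunit gene, and *Gad2*, which encodes an enzyme of GABA synthesis, were at 1.82 to 6.02 and 2.97 to 5.83 TPM in the FNPs and at most 0.0400 and 0.0789 TPM in a mandible. *Olig2*, a progenitor factor of the neural tube and olfactory region, was at 7.09, 5.36, 1.39 and 5.35 TPM in the FNPs, again lowest in embryo 7.

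Among glia and early crest genes, 3 of 10 were higher in the FNP, 1 in the mandible, with a median log2 fold change of -0.05. The shares over all genes tested were 9.77% and 5.21%. *Sox10* was at 2.63, 1.91, 7.15 and 5.34 TPM in the mandibles and 7.06, 7.64, 5.03 and 6.64 TPM in the FNPs, with overlapping groups and no call (log2 fold change -0.79, 95% confidence interval from -1.64 to 0.07). *Erbb3*, the neuregulin receptor gene of migrating crest and glia, was higher in the FNP at 15.7 ± 1.08 against 7.81 ± 1.78 TPM (SD, n = 4), with a log2 fold change of -1.03. The member higher in the mandible was *Cdh19*, at 0.886 ± 0.611 and 0.273 ± 0.129 TPM, whose call was lost without embryo 1, 7 or 8.

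Muscle precursor genes were higher in the mandible. The mandibular arch has a core of mesoderm that gives the jaw muscles, and the FNP lacks such a core. Of 35 listed genes 19 passed the filter, and 11 of these were higher in the mandible, 4 higher in the FNP, with a median log2 fold change of 1.67. Their summed level was 208 to 335 TPM in the mandibles and 303 to 321 TPM in the FNPs, the latter with *Pax3* and *Pax7* included. Those in the FNP included *Pax7* and *Pax3*, which also mark frontonasal crest, and *Eya1*, which also marks the placode. *Myod1*, which commits cells to muscle, had 2.52, 2.79, 8.31 and 13 TPM in the mandibles and 0, 0, 0.103 and 0.0482 TPM in the FNPs, and *Myog*, which acts after it, had 2.67, 2.0, 7.47 and 10 TPM against 0, 0.0554, 0.130 and 0 TPM. For both, the mandibles of the second litter were above those of the first, and the log2 fold changes were 6.66 (SE 0.375) and 6.11 (SE 0.615, Benjamini-Hochberg adjusted p = 5.21e-05 and 0.000658 by limma). Both passed the filter through the mandibles alone, which set their direction. *Actc1*, the cardiac actin gene of early muscle, followed them at 6.20, 5.48, 10.9 and 21.1 TPM in the mandibles. The upstream genes did not split by litter. *Myf5* had 4.44, 2.95, 3.25 and 4.97 TPM in the mandibles and 0.714, 0.790, 0.556 and 1.08 TPM in the FNPs, and *Msc* (musculin), a marker of head muscle progenitors, had 7.70, 4.70, 5.66 and 6.23 TPM against at most 0.395 TPM. *Tcf21* (capsulin) had 3.70, 3.31, 3.15 and 5.52 TPM in the mandibles and was listed at 0 in all 4 FNPs. It passed the filter through the mandibles alone, which set its direction. *Tbx1*, a gene of pharyngeal mesoderm and endoderm, was at 14.3 ± 4.28 TPM in the mandible and 4.60 ± 0.241 TPM in the FNP (SD, n = 4).

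Genes of pharyngeal endoderm and heart field also marked the mandible, with 5 of 8 tested members higher there and 0 in the FNP, the median being a log2 fold change of 2.23. *Nkx2-5*, a homeobox gene of the heart field and the pharynx floor, had 3.17, 3.02, 5.29 and 8.88 TPM in the mandibles and was listed at 0 in all FNPs. Like *Tcf21*, it passed the filter through the mandibles alone, which set its direction. *Nkx2-3* was at 5.37 ± 0.507 TPM in the mandible and 0.0412 to 0.680 TPM in the FNPs, and *Foxa1*, an endoderm factor gene, at 4.02 ± 0.306 and 0.456 ± 0.234 TPM (SD, n = 4). *Tlx1*, a homeobox gene of the arches, had 9.04, 8.23, 5.44 and 7.27 TPM in the mandibles and 0, 0, 0.246 and 0.695 TPM in the FNPs.

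Epithelial genes lay in both directions. Of 24, 4 were higher in the mandible, 8 higher in the FNP and 12 were not called, with a median log2 fold change of -0.18. *Epcam*, *Krt8*, *Krt18* and *Cldn6*, known from simple epithelium, were among those higher in the FNP. *Epcam* had 39.9, 39.1, 29.8 and 32.4 TPM in the mandibles and 75.7, 90.8, 80.5 and 85.4 TPM in the FNPs, a log2 fold change of -1.20 (SE 0.0998, Benjamini-Hochberg adjusted p = 0.000274 by limma). *Krt5*, *Krt14* and *Krt15*, keratin genes of stratifying epithelium, were higher in the mandible. *Krt14* had 22.0, 21.3, 35.1 and 40.8 TPM in the mandibles and 9.45, 13.9, 23.4 and 20.0 TPM in the FNPs, and *Krt15* had 14.1, 8.55, 26.6 and 35.1 TPM against 2.99, 3.44, 7.34 and 6.78 TPM. Within each embryo the mandible was higher, although over all libraries the *Krt14* groups overlapped, and both tissues of the second litter had more than those of the first. The log2 fold changes of *Krt14*, *Krt15* and *Krt5* were 0.86, 1.93 and 0.92. *Cdh1*, which encodes the general epithelial cadherin, was not called, at 20.3 ± 2.52 TPM in the mandible and 25.9 ± 3.10 TPM in the FNP (SD, n = 4, log2 fold change -0.35), nor was *Trp63* (25.9 ± 3.21 and 20.2 ± 1.5 TPM, log2 fold change 0.35, 95% confidence interval from 0.12 to 0.57). Every mandible was above every FNP for *Trp63*, and it passed the threshold in 6 of the other settings, the fit over all 16 libraries among them.

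Genes of vessels and blood were called about as often as all genes tested, or less. Over all genes 5.21% were called for the mandible and 9.77% for the FNP. Of 19 endothelial genes 1 was called in each direction, with a median log2 fold change of 0.03. They were *Pecam1*, at 25.1 ± 2.18 TPM in the mandible and 20.3 ± 1.18 TPM in the FNP, and *Cd34*, at 35.3 ± 1.95 and 43.9 ± 2.72 TPM (SD, n = 4). Of 15 erythroid genes 0 were called (limma, adjusted p), with a median log2 fold change of 0.18, and the summed level was 13500 to 18800 TPM in the mandibles and 13300 to 17700 TPM in the FNPs. The embryonic globin gene *Hbb-y* averaged 7060 and 6230 TPM. Of 11 macrophage genes 1 was higher in the FNP.

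**Figure D3:**
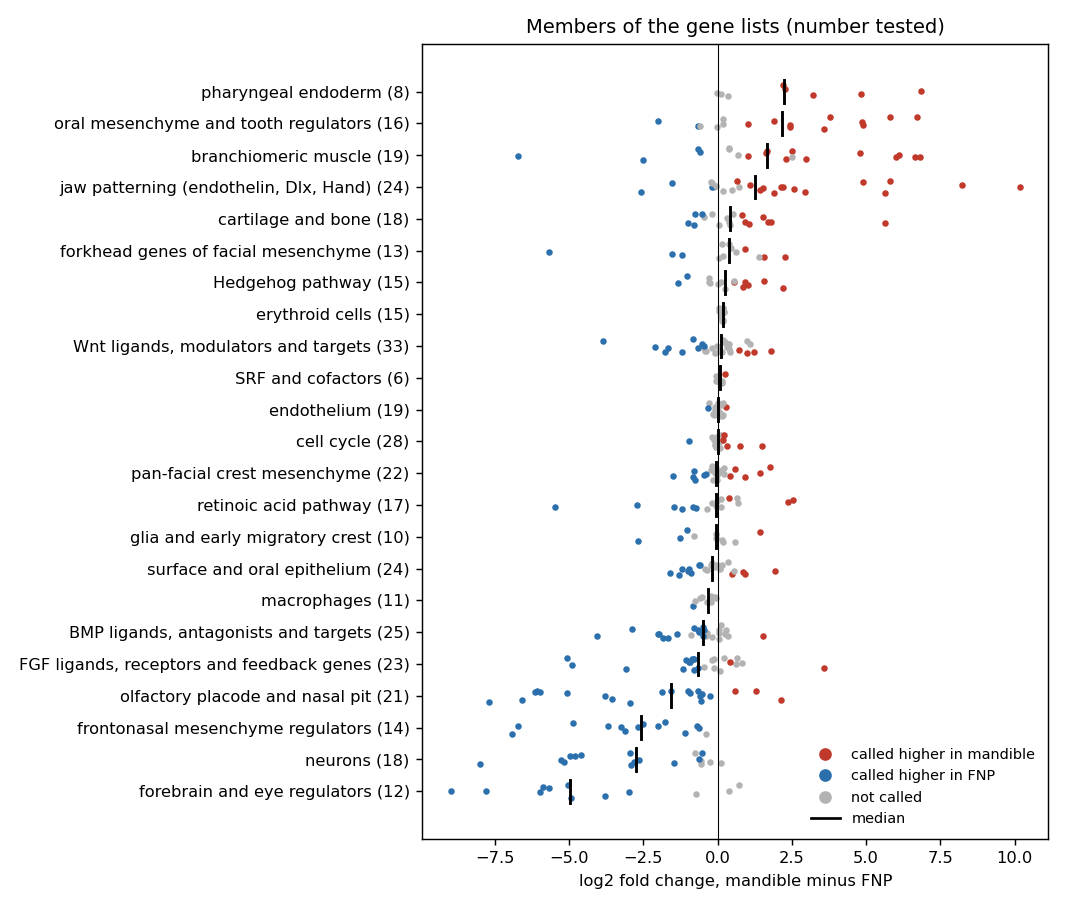
Log2 fold change between mandible and FNP (horizontal axis) of the tested members of each gene list, 1 point per gene, with the number tested in brackets and the list's median as a black bar. Red and blue points were called higher in the mandible and the FNP, and grey points were not called. Medians run from -4.97 for forebrain and eye regulators to 2.23 for pharyngeal endoderm.

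Hedgehog signalling genes were higher in the mandible for 6 of 15 members and in the FNP for 2, with a median log2 fold change of 0.26. *Shh*, the ligand made by oral and pharyngeal epithelium, had 12.5, 9.06, 8.90 and 8.70 TPM in the mandibles and 2.47, 1.90, 1.88 and 2.30 TPM in the FNPs. The groups were apart, with a log2 fold change of 2.2 (SE 0.105, Benjamini-Hochberg adjusted p = 2.48e-05 by limma). The target genes *Ptch1* (also the receptor gene) and *Gli1*, whose levels report the pathway, were higher in the mandible too, at 70.4 ± 12.4 and 52.5 ± 11.1 TPM against 38.9 ± 10.2 and 35.8 ± 4.42 TPM (SD, n = 4). Their log2 fold changes were 0.87 and 0.56. The co-receptor genes *Cdon* and *Boc* had the opposite sign. *Boc* had 11, 10.3, 16.9 and 15.4 TPM in the mandibles and 29.3, 26.4, 42.9 and 35.5 TPM in the FNPs, a log2 fold change of -1.33 (SE 0.0519, Benjamini-Hochberg adjusted p = 1.0e-05 by limma), and that of *Cdon* was -1.04.

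FGF pathway genes were mainly higher in the FNP, 12 of 23 tested against 2 on the mandible side, with a median log2 fold change of -0.67. Among ligands, *Fgf17* had 0.330, 0.179, 0.197 and 0.302 TPM in the mandibles and 6.65, 9.50, 9.59 and 7.76 TPM in the FNPs, a log2 fold change of -4.90 (SE 0.289, Benjamini-Hochberg adjusted p = 6.25e-05 by limma). *Fgf8*, made in the ectoderm of both prominences, had 24.4, 25.6, 10.3 and 12.8 TPM against 38.0, 49.5, 29.9 and 19.8 TPM. Its groups overlapped over all libraries, with more in the first litter, but the FNP was higher in each embryo and the log2 fold change was -0.92 (SE 0.158). *Fgf9* was at 4.47 ± 0.835 and 9.36 ± 1.48 TPM (SD, n = 4). The ligand higher in the mandible was *Fgf5*, at 1.96, 3.15, 1.82 and 1.92 TPM against 0.101 to 0.219 TPM in the FNPs, a log2 fold change of 3.57 (SE 0.359). *Fgfr1*, the main receptor gene of facial mesenchyme, had a log2 fold change of 0.09 with a 95% confidence interval from 0.00 to 0.18, and *Fgfr2* one of 0.42, a call lost without embryo 1, 2 or 7. The feedback genes *Spry2*, *Dusp6* and *Il17rd*, which FGF signalling induces, were all higher in the FNP, by log2 fold changes of -0.85, -0.67 and -1.15.

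BMP pathway genes were called in the FNP for 13 of 25 and in the mandible for 1, with a median log2 fold change of -0.48. Both ligands and antagonists were among the 13. *Bmp7* had 19.1, 16.6, 18.3 and 20.7 TPM in the mandibles and 42.1, 41.9, 61.3 and 49.0 TPM in the FNPs, a log2 fold change of -1.36 (SE 0.0997, Benjamini-Hochberg adjusted p = 0.000149 by limma). *Bmp4* was higher in the FNP of each embryo by -0.67 (SE 0.0745), and both tissues of the second litter had more than those of the first. Of the secreted antagonists, *Nog* was at 2.04 ± 1.0 and 6.16 ± 1.03 TPM and *Grem1* at 1.72 ± 0.733 and 6.77 ± 2.70 TPM in mandible and FNP (SD, n = 4). The target gene *Id3* was at 200 ± 11.9 and 344 ± 25.8 TPM. *Gata2*, a zinc finger gene of BMP-exposed ectoderm and nasal mesenchyme, had 6.27, 12.9, 7.21 and 3.69 TPM in the mandibles and 103, 88.7, 167 and 113 TPM in the FNPs, a log2 fold change of -4.07 (SE 0.301, Benjamini-Hochberg adjusted p = 0.000155 by limma). The receptor gene *Bmpr1a* had a log2 fold change of 0.04 with a 95% confidence interval from -0.09 to 0.17.

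Wnt pathway genes lay in both directions, with 9 of 33 higher in the FNP against 4 in the mandible and a median log2 fold change of 0.11. The shares over all genes tested were 9.77% and 5.21%. *Wnt5a*, a ligand of outgrowing mesenchyme, had 52.4, 41.7, 78.5 and 94.2 TPM in the mandibles and 143, 131, 351 and 252 TPM in the FNPs. Both tissues had more in the second litter, the groups did not overlap, and the log2 fold change was -1.67 (SE 0.119, Benjamini-Hochberg adjusted p = 0.000130 by limma). The secreted inhibitor gene *Wif1* followed the same pattern at 1.79, 1.79, 4.83 and 6.74 TPM against 8.91, 6.96, 27.9 and 21.7 TPM. *Rspo1*, which encodes an enhancer of Wnt signalling, was at 6.64 ± 2.85 TPM in the mandible and 21.3 ± 2.07 TPM in the FNP (SD, n = 4). *Notum*, which encodes an enzyme that inactivates Wnt ligands and is itself a Wnt target, had 9.44, 9.28, 16.3 and 17.4 TPM in the mandibles and 1.61, 2.17, 8.41 and 5.43 TPM in the FNPs, a log2 fold change of 1.81 (SE 0.235). *Axin2*, a general readout of canonical Wnt signalling, was at 82.2 ± 4.49 and 62.8 ± 19.0 TPM and was not called (log2 fold change 0.43, Benjamini-Hochberg adjusted p = 0.0605 by limma). It passed the threshold with all 16 libraries, with quantile normalization and without embryo 7.

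Retinoic acid genes lay in both directions. Of 17 tested, 6 were higher in the FNP, 3 in the mandible, with a median log2 fold change of -0.05, against 9.77% and 5.21% of all genes tested. The summed level was 2600 to 4630 TPM in the FNPs and 1150 to 1290 TPM in the mandibles. *Crabp1*, which encodes a cytoplasmic retinoic acid binding protein, had 421, 455, 291 and 308 TPM in the mandibles and 2900, 3270, 2080 and 1550 TPM in the FNPs. This was the largest difference in mean TPM on the FNP side among genes called with an absolute log2 fold change of at least 1, and the log2 fold change was -2.70 (SE 0.0890, Benjamini-Hochberg adjusted p = 6.09e-06 by limma). The enzymes of synthesis differed by tissue. *Aldh1a3*, of the nasal pit and eye, had 0.934, 1.95, 2.38 and 1.62 TPM in the mandibles and 80.3, 108, 53.1 and 65.5 TPM in the FNPs, a log2 fold change of -5.48 (SE 0.275). *Aldh1a2*, of mesoderm and mesenchyme, had 16.1, 12.8, 37.5 and 42.4 TPM in the mandibles and 2.26, 1.54, 4.41 and 17.5 TPM in the FNPs, with a log2 fold change of 2.55 (SE 0.281). The FNP of embryo 8 reached the range of the first-litter mandibles, so those groups overlapped. The receptor gene *Rarb*, a direct target, and *Stra6*, which encodes the importer of vitamin A, were higher in the FNP by log2 differences of -1.20 and -1.46. *Cyp26c1*, which encodes a degrading enzyme, was higher in the mandible at 1.6 ± 0.547 against 0.280 ± 0.0802 TPM (SD, n = 4), while *Cyp26b1* was not called, at 12.6, 12.7, 33.0 and 29.9 TPM against 15.5, 15.3, 33.6 and 32.3 TPM.

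**Figure D4:**
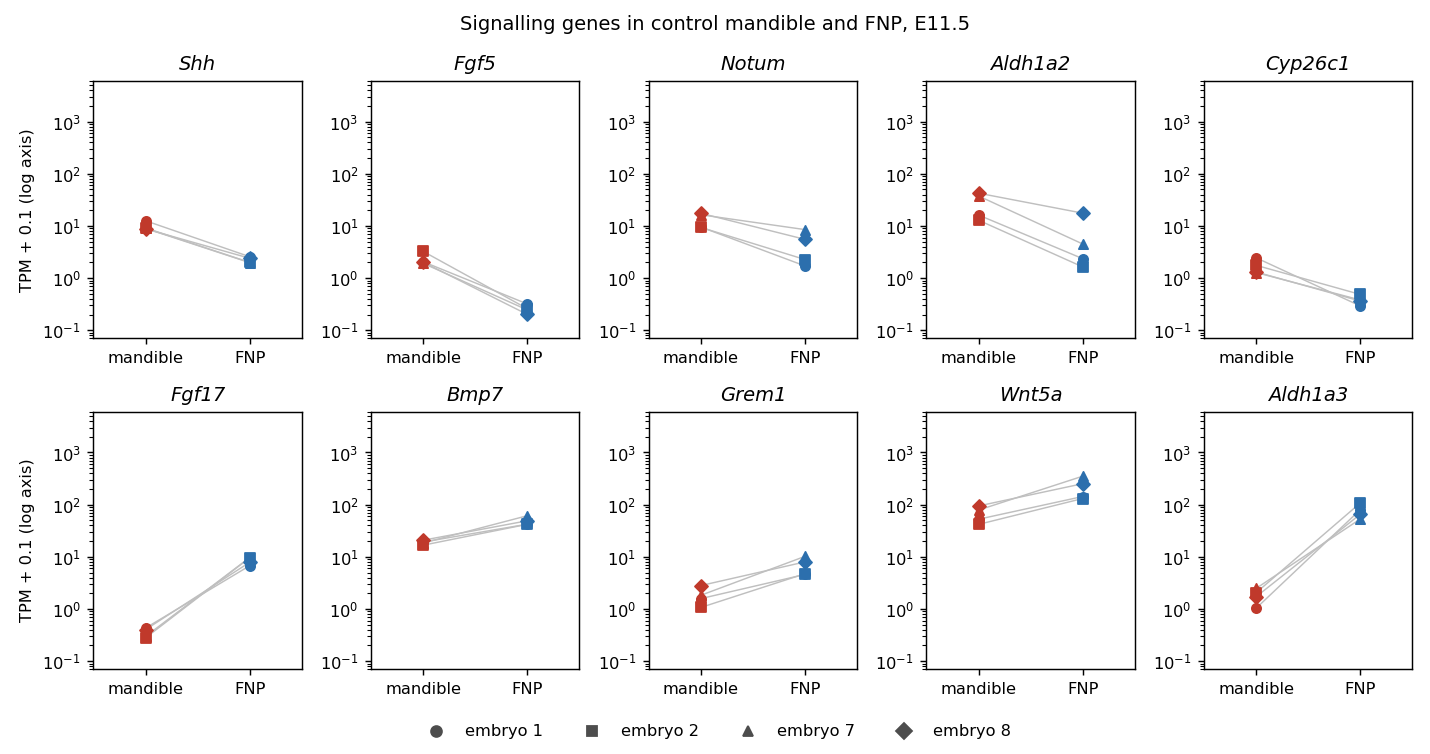
TPM + 0.1 on a log axis for signalling genes, with the mandible (red) and FNP (blue) libraries of each embryo joined by a grey line and the embryo given by the symbol. *Shh*, *Fgf5*, *Notum*, *Aldh1a2* and *Cyp26c1* were higher in the mandible of all 4 embryos and *Fgf17*, *Bmp7*, *Grem1*, *Wnt5a* and *Aldh1a3* in the FNP of all 4.

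Skeletal precursor genes were called in the mandible for 7 of 18 members and in the FNP for 4, with a median log2 fold change of 0.41. *Sox9*, the master factor of cartilage, was higher in the FNP, at 46.8, 41.7, 42.4 and 32.0 TPM in the mandibles and 73.9, 67.5, 62.6 and 81.2 TPM in the FNPs (log2 fold change -0.80, SE 0.120, Benjamini-Hochberg adjusted p = 0.00413 by limma). Its target *Col2a1* did not follow, at 265 ± 44.0 and 258 ± 60.9 TPM, a log2 fold change of 0.06 with a 95% confidence interval from -0.21 to 0.33. *Col9a1*, another cartilage collagen gene, was higher in the mandible, at 119, 130, 78.4 and 61.8 TPM against 33.1, 26.5, 21.4 and 28.0 TPM. The bone factor genes *Runx2* and *Sp7* had 6.45, 4.48, 18.4 and 15.5 TPM and 2.88, 2.08, 5.64 and 6.40 TPM in the mandibles, against 2.56, 2.27, 13 and 11.2 TPM and 1.26, 1.34, 2.63 and 2.55 TPM in the FNPs. Both were higher in the mandible of each embryo and in the second litter of each tissue, with log2 fold changes of 0.81 and 1.05. The call of *Runx2* was lost without embryo 2. *Alpl*, which encodes the bone phosphatase, was higher in the FNP (log2 fold change -1.01) and lost its call without embryo 1 or 2. *Scx*, a tendon gene, was at 20.8 ± 5.14 TPM in the mandible and 10.8 ± 1.72 TPM in the FNP (SD, n = 4).

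Among genes called with an absolute log2 fold change of at least 1, the 6 with the largest differences in mean TPM on the mandible side were *Igf2*, *Dlk1*, *Nnat*, *Cdkn1c*, *Gpc3* and *Barx1*. *Igf2*, which encodes an insulin-like growth factor, had 1830, 1700, 2080 and 2210 TPM in the mandibles and 375, 365, 390 and 461 TPM in the FNPs. The log2 fold change was 2.29 (SE 0.0444, Benjamini-Hochberg adjusted p = 8.87e-07 by limma). *Dlk1*, a Notch-like inhibitor of differentiation, had 1030, 1010, 1040 and 1130 TPM against 203, 224, 109 and 102 TPM, a log2 fold change of 2.81 (SE 0.212). *Cdkn1c*, which encodes a cell cycle inhibitor, had 963, 844, 1440 and 1640 TPM against 402, 362, 437 and 474 TPM, *Gpc3*, a glypican gene, averaged 873 ± 51.8 and 406 ± 41.3 TPM, and *Nnat* averaged 1640 ± 29.7 and 803 ± 24.0 TPM (SD, n = 4). None of these groups overlapped. Of the cell cycle genes 5 of 28 were higher in the mandible, 1 in the FNP, the median log2 fold change being 0.02. The shares over all genes tested were 5.21% and 9.77%. *Mki67*, a marker of cycling cells, had a log2 fold change of 0.03 with a 95% confidence interval from -0.17 to 0.23, *Ccnd1*, the cyclin D1 gene, was at 220 ± 17.2 TPM in the mandible and 132 ± 15.4 TPM in the FNP, and the inhibitor gene *Cdkn1a* was the member higher in the FNP, at 15.6 ± 1.39 against 7.93 ± 0.288 TPM (SD, n = 4).

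Several genes with large folds fell outside these groups. *Gpr50*, an orphan receptor gene on the X chromosome, had 41.7, 40.5, 33.9 and 40.8 TPM in the mandibles and 0.148, 0, 0.257 and 0.0534 TPM in the FNPs, a log2 fold change of 7.81 (SE 0.395, Benjamini-Hochberg adjusted p = 3.06e-05 by limma). *Crym*, which encodes a thyroid hormone binding protein, had 53.3, 60.8, 38.3 and 43.0 TPM in the mandibles and 451, 453, 145 and 216 TPM in the FNPs, with more in the first litter, and a log2 fold change of -2.55 (SE 0.174). *Acsm4*, an acyl-CoA synthetase gene, had 1.45, 1.16, 2.01 and 7.42 TPM in the FNPs and was listed at 0 in the mandibles, and *Xkr7* had 2.22, 2.04, 1.58 and 2.94 TPM in the FNPs and at most 0.07 TPM in a mandible. *Cdhr1*, a protocadherin gene of olfactory and retinal cells, was at 3.05 to 5.73 TPM in the FNPs and at most 0.103 TPM in a mandible.

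Most tissue differences recurred in mutant embryos. In the 4 *Srf* mutant embryos, which are other animals, 2092 of the 2122 had the same sign and 1679 were also called, where the mutants alone gave 2971 calls of 14159 genes (limma, Benjamini-Hochberg, embryo as a block). Of the 748 with an absolute log2 fold change of at least 1, 744 had the same sign in mutants. *Hand2* and *Six3* had log2 fold changes of 8.42 and -7.86 in the mutants. The interaction of tissue and genotype, tested over all 16 libraries, gave 0 of 14630 genes by limma, with 852 at an unadjusted p under 0.05, a smallest adjusted p of 0.830 and 0 also without the embryo block. A miss of the threshold does not show that the tissue difference was the same in mutants. *Srf* itself was at 48.1, 65.9, 34.4 and 56.9 TPM in the control mandibles and 48.9, 75.2, 34.7 and 56.5 TPM in the control FNPs. It varied more between embryos than between the tissues of an embryo, with a log2 fold change of -0.05 (95% confidence interval from -0.23 to 0.12). In both tissues the Cre-positive embryos 1 and 7 were below embryos 2 and 8, a difference that was not tested. Of the *Srf* cofactor genes *Elk3* was higher in the mandible by 0.25, a call lost without embryo 1 or 8.

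The interaction of tissue and Cre gave 0 of 14159 genes by limma, with 325 at an unadjusted p under 0.05, and 1 gene without the embryo block. The interaction of tissue and litter gave 1 gene (0.00706%). *Ntrk2*, which encodes a neurotrophin receptor, had 4.54, 5.50, 2.29 and 3.10 TPM in the mandibles and 0.786, 0.855, 3.95 and 5.93 TPM in the FNPs. It was higher in the mandible of the first litter (log2 fold change 2.58) and in the FNP of the second (-0.86), a difference of -3.43 (Benjamini-Hochberg adjusted p = 0.0244 by limma). *Gap43*, *Tbx18* and *Tbx15* also had opposite signs in the litters without an interaction that passed the threshold (adjusted p = 0.0704, 0.0747 and 0.227, limma with Benjamini-Hochberg adjustment). *Gap43*, a growth cone gene, was at 89.3, 94.7, 44.1 and 51.8 TPM in the mandibles and 64.2, 62.5, 106 and 95.5 TPM in the FNPs. *Tbx18* was at 0.949, 0.347, 4.80 and 5.35 TPM against 2.63, 1.76, 1.33 and 1.52 TPM. None of these 3 genes, nor *Ntrk2*, was called between the tissues over both litters.

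**Figure D5:**
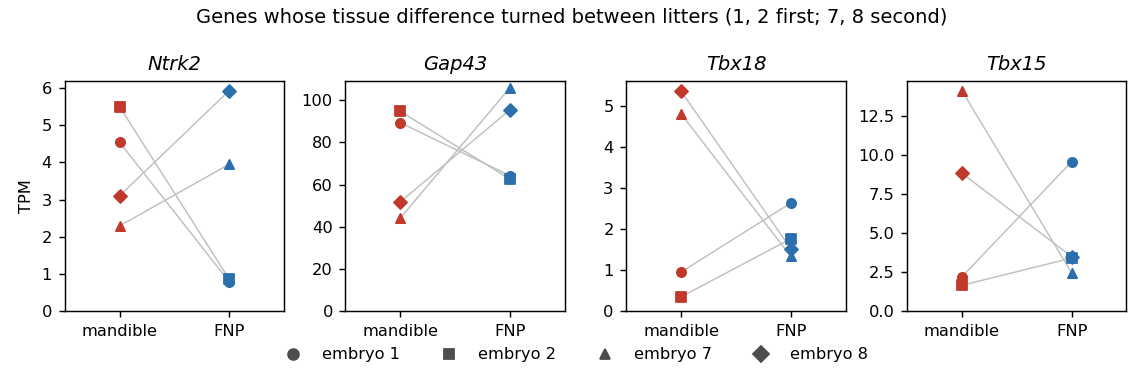
TPM of 4 genes whose tissue difference had opposite signs in the litters, with the mandible (red) and FNP (blue) libraries of each embryo joined by a grey line. Circles and squares are embryos 1 and 2 of the first litter, triangles and diamonds embryos 7 and 8 of the second. The lines of the litters cross, as for *Ntrk2*, which was higher in the mandible in the first litter and in the FNP in the second.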

How the data were processed

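RNA of mandible and FNP was selected by poly(A) and sequenced from both ends. Per the submitters' notes, the authors used Salmon 1.5.0 on the mm10 transcriptome, then sleuth 0.30.0-4 for gene totals. The deposited gene values, named read counts, are a signal for 15451 genes, namely estimated counts over a library size factor, and the deposited TPM for 35639 genes carry a similar factor, with library totals of 0.940 to 1.07 m. Whole reads could not be recovered (17.6% to 19.7% of low values whole within 0.02 at the best step), so no count model was run although the design had allowed for one, reads per gene are unknown and precision is judged from the spread between embryos. The authors' own comparison tables, with effect sizes, errors and p-values of their models, were not used.

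Genes reaching 10 in 4 or more of the 8 control libraries were tested on log2(value + 0.5), using limma 3.58.1 under R 4.3.3, a variance trend and embryo as a block, with Benjamini-Hochberg adjustment. Intervals are 95%. Both libraries of an embryo come from 1 animal, and their deviations from the tissue means correlated with r = 0.18 to 0.28. For embryo 7 this r, 0.18, was not above the highest r of its mandible with the FNP of another embryo, 0.19. Interactions used the same model. The fit was tested on simulated data.

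The genes and lists were chosen with earlier results of these data known, and no list was tested as a set. Genes were named by rule: *Hand2* and *Six3*, the 12 largest log2 fold changes each way with separate groups and at least 1 TPM, the 6 largest TPM differences each way, all members of lists of up to 16 genes, and of longer lists the 8 with the smallest p each way and members called against the list. Outside this rule, after their values were seen, *Dlx3*, *Dlx4*, *Dlx6*, *Nr2f1*, *Nr2f2*, *Edn1*, *Twist1*, *Gap43*, *Ntrk2*, *Cdh1*, *Fgf8*, *Col2a1*, *Mki67* and *Hoxb2* were named, and so were the imprinted genes and *Kcnk9* in the closing section. A list of antisense and other noncoding partners of these regulators was not analysed here, and some list members are not reported here. Coordinates are from GENCODE vM21 for GRCm38, which held 13936 of the 14159 symbols tested. Figures were drawn with matplotlib 3.10.9. The closing section gives the other settings: no block, other pseudocounts, filters and scalings, the TPM table, no variance trend, all 16 libraries and leaving out each embryo.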

Additional observations from a re-analysis of the deposited data

Results flagged for a closer look

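The tissue difference of *Ntrk2* depended on litter, with an interaction of -3.43 on the log2 scale, second minus first litter (limma with Benjamini-Hochberg adjusted p = 0.0244). For *Tbx15*, *Tbx18* and *Gap43* both embryos of a litter lay one way and both of the other litter the opposite way, with interactions of 3.44, 3.68 and -1.60 that did not pass the threshold.

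Among the levels of the genes named, 19 of 366 groups of 4 libraries had 1 library set apart from the other 3 by more than Dixon's 95% value, where chance gives about 5%. In the FNP of embryo 1 *Dlx1* was at 5.18 TPM (others 1.67 to 1.71) and *Tbx15* at 9.56 TPM. In the FNP of embryo 7 *Msx1* was at 640 TPM (others 399 to 437), *Twist1* at 725 TPM (464 to 498), *Otx2* at 13.8 TPM (20.7 to 21.6) and *Kcnk9* at 0.251 TPM. In the FNP of embryo 2 *Actc1* was at 0.395 TPM, and in that of embryo 8 *Acsm4* was at 7.42 TPM (1.16 to 2.01). In the mandible of embryo 1 *Shh* was at 12.5 TPM (8.70 to 9.06), *Cdh1* at 24.0 TPM and *Xkr7* at 0.07 TPM. The mandible of embryo 2 had *Fgf5* at 3.15 TPM (1.82 to 1.96), *Tfap2a* at 18.8 TPM, *Nhlh1* at 0.195 TPM and *Htr3b* at 0.0400 TPM. That of embryo 7 had *Sim2* at 19.0 TPM (10.8 to 11.9) and *Gpr50* at 33.9 TPM, and that of embryo 8 had *Alx1* at 41.6 TPM and *Ebf2* at 14.9 TPM.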

How the results depend on the processing

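All 2122 calls kept their sign in every setting in which they were tested, though these settings share the libraries that gave the calls. Without the replicate block, with litter in place of embryo, 878 genes were called for the mandible and 1628 for the FNP, 2064 of the main calls among them. Leaving out 1 embryo gave 479 to 598 genes for the mandible, fewest without embryo 1, and 940 to 1187 for the FNP, with 1359, 1459, 1616 and 1479 of the main calls kept without embryos 1, 2, 7 and 8, and 197 to 212 and 461 to 519 with an absolute log2 fold change of at least 1. *Hand2* ran from 9.34 to 10.72 and *Six3* from -9.65 to -8.44. A filter at 50 left fewer genes tested, with 150 and 293 called past that fold. No variance trend gave 483 higher in the mandible and 1024 higher in the FNP and kept 1393 of the main calls. The tissue by litter count was 13 without the replicate block, 4 with pseudocount 5 and 5 with equal totals, and tissue by Cre gave 1 without the block. On the most variable genes alone the first component held 66.9%. The cause of these changes was not tested.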

Other observations

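Genes listed as imprinted, meaning expressed from 1 parental allele in at least some tissues, were mostly higher in the mandible. Expression by allele was not measured here. This list was written after the values of *Igf2* and *Dlk1* had been seen and is a description. Of 50 genes 42 were tested, 24 were higher in the mandible (57.1%, against 5.21% of all genes), 1 was higher in the FNP and 17 were not called, with a median log2 fold change of 0.38. *Magel2*, of the Prader-Willi region on chromosome 7, had 28.5, 31.2, 27.7 and 31.5 TPM in the mandibles and 1.94, 1.69, 1.79 and 1.77 TPM in the FNPs. The spread within a tissue was small, and the log2 fold change was 4.04 (SE 0.0750, Benjamini-Hochberg adjusted p = 8.87e-07 by limma). Its neighbour *Ndn* was at 99.8 ± 11.1 and 43.2 ± 0.458 TPM, while *Snrpn*, of the same region, was not called (log2 fold change -0.26) but passed the threshold toward the FNP in 4 other settings.

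*Zim1* and *Peg3*, zinc finger genes that lie next to each other on chromosome 7, were at 39.3 ± 8.15 and 380 ± 25.9 TPM in the mandible and 2.99 ± 0.273 and 99.9 ± 6.53 TPM in the FNP (SD, n = 4). *Rtl1*, near *Dlk1* on chromosome 12, was at 3.72 ± 0.194 and 0.380 ± 0.0617 TPM, *Klf14* at 6.02 ± 2.29 and 0.145 ± 0.164 TPM, and *Asb4* at 127 ± 15.0 and 30.8 ± 2.77 TPM. *Plagl1* and *Mest* had log2 fold changes of 1.25 and 0.90. Not all imprinted genes lay this way: *Grb10* was at 607 ± 43.9 and 548 ± 15.3 TPM and was not called (log2 fold change 0.17), and *Kcnk9* had 0.753, 0.775, 0.251 and 0.70 TPM in the FNPs and was listed at 0 in the mandibles. Of the genes named here, *Magel2*, *Zim1*, *Rtl1*, *Peg3*, *Ndn* and *Asb4* had log2 fold changes of 3.85, 3.50, 2.84, 1.86, 1.30 and 1.97 in the *Srf* mutant embryos. These were all called higher in the mandible of controls, so they do not show how the whole list behaved in mutants.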
